A study of Mus musculus with 8 samples.

Results

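Small leucine-rich proteoglycans (SLRPs) are secreted proteins of the extracellular matrix, and 9 of their genes, out of 24054 genes in the expression table, were followed in the SOL (soleus) of MI4KO and flox mice. Decorin (Dcn), biglycan (Bgn), asporin (Aspn), lumican (Lum), fibromodulin (Fmod), keratocan (Kera), prolargin (Prelp), osteoglycin (Ogn) and podocan (Podn) were taken by name as members of the family. Fmod was also selected on its lower values in MI4KO mice, the contrast that chose it, so its difference between the groups is described here without a test.

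SLRPs have a protein core built of leucine-rich repeats, to which chains of sugars can be attached. Decorin and biglycan carry chondroitin or dermatan sulfate chains, lumican, fibromodulin, keratocan and osteoglycin can carry keratan sulfate, and asporin lacks such chains. Many of them bind fibrillar collagen and influence how its fibrils grow, and several bind growth factors such as TGF-beta. In skeletal muscle they are made mainly by fibroblasts, fibro-adipogenic progenitors and tendon cells rather than by the muscle fibers.

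MI4KO mice carried Irf4 flox/flox alleles together with Myl1-Cre, a Cre driven from the Myl1 locus that is active in skeletal muscle fibers, and the flox mice had the same floxed alleles without Cre. Each group held 4 male mice of the C57BL/6 strain, the labels record a high-fat diet for every mouse, and no age is given in the sources used here. One stranded poly(A) library was made per mouse, and the mice of each group are called 1 to 4 in the order of their numbers in the labels. Values are CPM, that is, reads on a gene scaled by the depth of the library, after trimmed mean of M-values (TMM) normalization.

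Between 13417512 and 16384565 reads on genes stood behind each library, and 3 reads corresponded to a value of 0.181 to 0.225. Irf4 itself was at 0.686, 1.46, 1.58 and 1.68 in flox mice 1 to 4 and at 0.725, 0.840, 0.266 and 1.03 in MI4KO mice 1 to 4, which is 4 to 23 reads per mouse. These values count reads over the whole transcript, so reads from outside the deleted part, or from cells without Cre, are included. Flox mouse 1 lay among the MI4KO mice for Irf4 (log2 fold change -0.45, standard error, SE, 0.20, with a limma p of 0.0402 that became 1.0 on adjustment). MI4KO mouse 3 held the highest value of the 8 mice for 30.9% of the 11865 genes tested, and flox mouse 1 held a summed level of 12 liver genes of 179.9 against at most 23.8 in any other mouse. Fold changes were taken with limma on log2(value + 1), a scale that understates the change of low genes. A gene was called at an unadjusted p under 0.05 and a limma fold of 1.5 or more on that scale, in either direction. These limits of the study have the numbers given in its methods, where they were applied with edgeR. The fold is not the ratio of the means. Irf4, at -0.45, fell short of it, although its means were 1.35 in flox and 0.715 in MI4KO mice (ratio of MI4KO to flox 0.530). The limma p-values set the group difference against the spread of these 8 mice within groups, which limma moderates with that of other genes.

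The SLRP genes lie in clusters, so that neighbors on a chromosome could be compared. In the GENCODE M21 annotation of GRCm38, Dcn (chr10:97479609-97518143, plus strand), Lum (chr10:97565128-97572703, plus strand) and Kera (chr10:97606879-97613692, plus strand) follow each other with gaps of 46985 and 34176 bases and no coding gene between them. Aspn (chr13:49544443-49567565, plus strand) and Ogn (chr13:49608046-49624501, plus strand) stand in a row with the related genes Ecm2 and Omd, which are separated by gaps of 11654 to 15224 bases. Prelp (chr1:133910304-133921414, minus strand) and Fmod (chr1:134037254-134048277, plus strand) are 115840 bases apart, again with no coding gene between them. Bgn (chrX:73483602-73495933, plus strand) and Podn (chr4:108014791-108096445, minus strand) stand alone. Myl1, the locus of the Cre allele, is also on chromosome 1, 67.1 Mb from Fmod.

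Irf4 encodes a transcription factor that binds DNA at sites built around GAAA. The 250 bases before the RefSeq start of each SLRP gene were therefore searched for that core and for a pair of longer forms. RefSeq promoter sequences (GRCm38.p6) were found for 7 of the 9 genes, Dcn and Lum being without an entry. These RefSeq starts are not always the GENCODE starts given above. The windows of Podn (chr4:108031955-108032204 and chr4:108030987-108031236) and Kera (chr10:97606955-97607204) lie inside the gene spans given above. That of Prelp overlaps its span by a few bases. The sequences of Fmod, Prelp and Aspn are printed 5′ to 3′ on the strand of the gene, with each GAAA, or TTTC where the core lies on the other strand, in capitals. Fmod has the lowest log2 fold change of the members tested, Prelp is its chromosomal neighbor, and Aspn had a group difference near 0.
Fmod, chr1:134037004-134037253: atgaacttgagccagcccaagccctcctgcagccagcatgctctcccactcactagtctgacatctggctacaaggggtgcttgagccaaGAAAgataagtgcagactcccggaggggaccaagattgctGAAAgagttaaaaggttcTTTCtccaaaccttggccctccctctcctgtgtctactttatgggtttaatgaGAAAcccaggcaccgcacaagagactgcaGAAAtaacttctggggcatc
Prelp, chr1:133921402-133921651: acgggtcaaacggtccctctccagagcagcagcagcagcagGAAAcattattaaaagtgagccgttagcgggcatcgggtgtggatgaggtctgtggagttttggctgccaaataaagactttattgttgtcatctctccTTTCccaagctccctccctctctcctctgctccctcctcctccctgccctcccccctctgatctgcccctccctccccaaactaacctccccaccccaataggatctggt
Aspn, chr13:49544193-49544442: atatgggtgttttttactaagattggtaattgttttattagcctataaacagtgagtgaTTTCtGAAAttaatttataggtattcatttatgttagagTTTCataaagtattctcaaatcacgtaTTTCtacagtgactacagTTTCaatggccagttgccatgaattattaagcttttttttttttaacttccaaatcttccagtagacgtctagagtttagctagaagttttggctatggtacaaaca
The core occurred 5 times before Fmod, 2 times before Prelp and 5 times before Aspn. Kera had 6 such cores, Ogn 4, Bgn 3 and the starts of Podn 0 and 1. GAAA occurred on either strand in 86.4% of all 32851 promoters of this length, with a median of 2 per promoter. The longer forms were GAAA followed after any 2 bases by GAAA, found on either strand in 2.98% of all promoters, and GGAA followed after any 2 bases by GAAA, found in 2.30%. Neither was in any of the member promoters, and both forms contain the shorter core. These are matches of letters in a short window, and the binding of IRF4 was not measured here.

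Fmod binds type I collagen and takes part in fibril assembly and cross-linking. Of the members tested, it had the widest spread within groups on the scale of log2(value + 1). Its values were 7.67, 20.3, 11.1 and 13.99 in flox mice 1 to 4. They were 4.57, 4.98, 10.2 and 11.3 in MI4KO mice 1 to 4. Thus 2 MI4KO mice lay below every flox mouse and 2 flox mice lay above every MI4KO mouse, while flox mouse 1 fell between the MI4KO mice. The means were 13.3 ± 5.37 (SD, n = 4) for flox against 7.77 ± 3.49 (SD, n = 4) for MI4KO, a ratio of MI4KO to flox of 0.586 and a log2 fold change of -0.72 with an SE of 0.29. That was the 16th lowest log2 fold change of the 11865 genes tested, whose 5th and 95th percentiles were -0.26 and 0.15. This place rests on the values for which Fmod was chosen and adds no evidence.

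The Fmod values rested on 63 to 293 reads per mouse. Exact Poisson intervals at the 95% level, which cover counting error only, ran from 3.51 to 5.85 for MI4KO mouse 1 and from 18.1 to 22.8 for flox mouse 2, the lowest and the highest mouse. The SD between mice was 5.55 times the SD expected from counting alone in flox mice and 4.92 times in MI4KO mice. Dcn and Bgn had ratios of 4.30 to 7.25, but on 935 to 2906 reads per mouse, which raises this ratio at a given relative spread. In members nearer to Fmod in reads, the ratio ran from 1.31 (Podn) to 3.70 (Lum) in flox mice. In MI4KO mice it ran from 0.193 (Ogn) to 5.48 (Prelp). An excess over counting error was thus not particular to Fmod, though in flox mice its ratio was above those of the members nearer to it in reads. In bulk muscle, fewer cells making a transcript and less transcript per cell cannot be told apart, which holds for every gene below as well.

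Fmod also differed by the number ranges of the mice, and in both groups each mouse of the higher range was above those of the lower one. The numbers in the labels form a lower range, with flox mouse 1 and MI4KO mice 1 and 2, and a higher range with the other 5 mice. In the lower range, Fmod was 7.67 in the flox mouse and 4.57 and 4.98 in the MI4KO mice (ratio 0.623). In the higher range, 3 flox mice lay between 11.1 and 20.3 and 2 MI4KO mice at 10.2 and 11.3 (ratio of means 0.711). The same order of the ranges in both groups was seen for Ogn and, on few reads, for the related gene Chad, so it was not particular to Fmod. Ratios in the lower and the higher range were 1.15 and 0.808 for Ogn, 1.61 and 0.748 for Aspn and 1.14 and 0.412 for Irf4. For Bgn, Prelp and Podn they were below 1 in both ranges. With the number range as a covariate, the log2 fold change of Fmod was -0.48. What the number ranges stand for is not given, and their part in the difference was not tested.

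**Figure D1:**
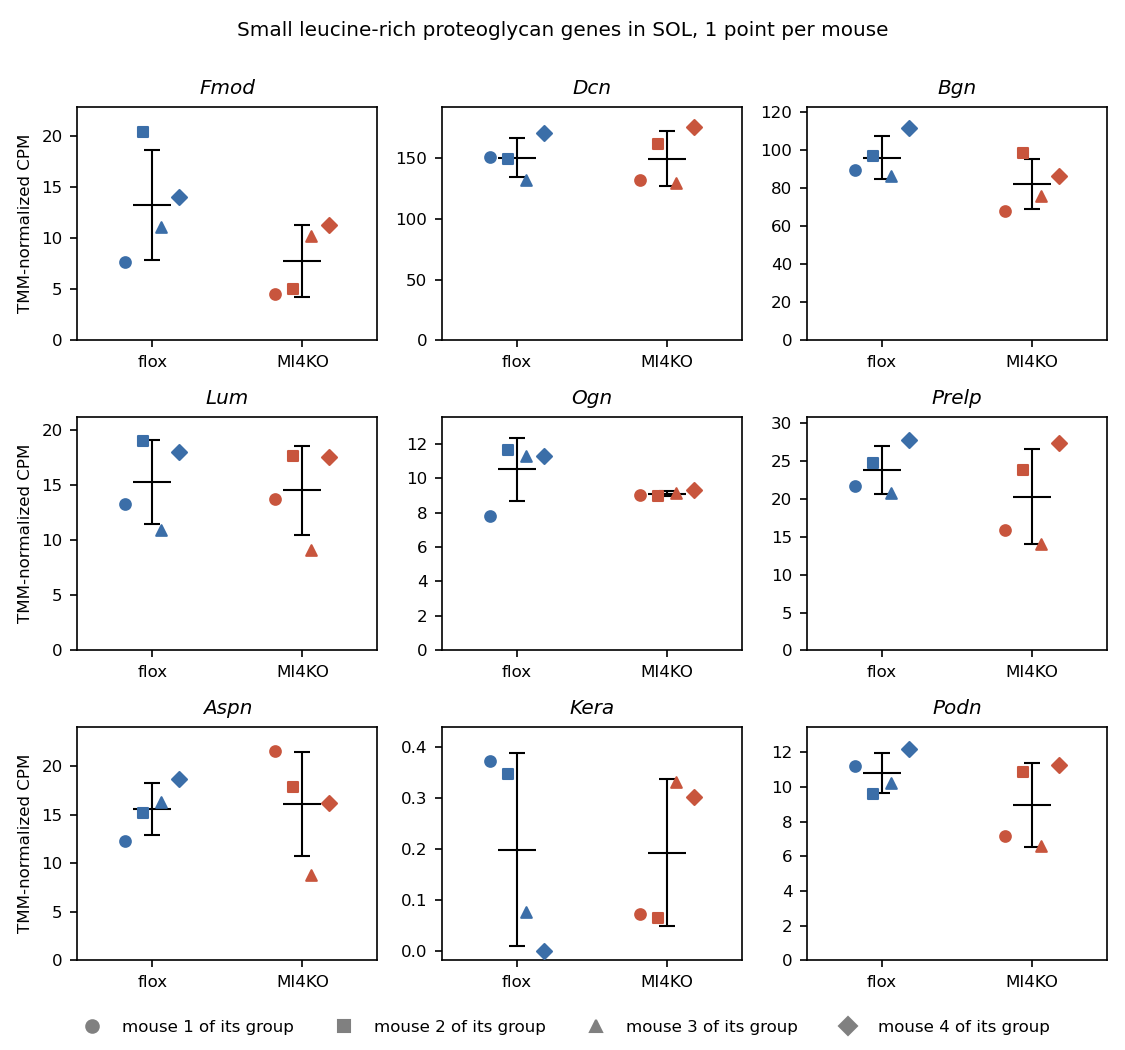
Each panel plots 1 gene in TMM-normalized CPM, with 1 point per mouse (flox left, MI4KO right), the group mean as a long bar and the SD (n = 4) as whiskers; all axes but that of Kera start at 0, and equal symbols in the groups do not mark pairs. The groups overlapped for all 9 genes, and the lowest Fmod points, 4.57 and 4.98, belonged to MI4KO mice 1 and 2.

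Dcn and Bgn, the chondroitin or dermatan sulfate SLRPs, were the most abundant members. Dcn encodes decorin, which binds collagen fibrils and TGF-beta, and was at 151, 149, 132 and 170.5 in flox mice 1 to 4 and at 132, 162, 129.6 and 176 in MI4KO mice 1 to 4. The groups overlapped along nearly their whole range, with means of 150.6 ± 15.8 and 149.8 ± 22.7 (SD, n = 4 each), and the log2 fold change was -0.01 (SE 0.11, limma unadjusted p = 0.898). Bgn encodes biglycan, the close relative of decorin, and was at 89.5, 96.8, 86.2 and 111 in flox mice 1 to 4 and at 67.8, 98.7, 76.0 and 86.3 in MI4KO mice 1 to 4. MI4KO mice 1 and 3 lay below every flox mouse and MI4KO mouse 2 lay above 3 of the 4 flox mice. Bgn means were 96.0 ± 11.2 in flox mice and 82.2 ± 13.3 in MI4KO mice (SD, n = 4 each), with a log2 fold change of -0.23 (SE 0.11, with a limma p of 0.0684 that became 1.0 on adjustment), which did not pass the test.

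The balance of the members is given as a description. Dcn values were 1.53 to 1.68 times those of Bgn in flox mice and 1.64 to 2.04 times in MI4KO mice, on the scale of CPM without correction for length. Of the summed CPM of the 9 genes, Dcn made up 43.0% to 47.9% (mean 44.9%) in flox mice and 47.0% to 49.4% (mean 48.5%) in MI4KO mice, and Fmod made up 2.44% to 5.86% and 1.44% to 3.88%. The ranges of the groups overlapped for each of these shares and ratios.

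Aspn, the third gene of the decorin class, encodes asporin, which binds collagen and TGF-beta. It was at 12.3, 15.2, 16.3 and 18.7 in flox mice 1 to 4 and at 21.6, 17.8, 8.78 and 16.3 in MI4KO mice 1 to 4. The highest and the lowest value of all 8 mice were both in MI4KO mice, so the range of the MI4KO mice enclosed that of the flox mice. The log2 fold change was -0.01 (SE 0.21, limma unadjusted p = 0.974), and it was 0.24 when MI4KO mouse 3 was left out.

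Lum, Prelp and Kera encode SLRPs of the same class as fibromodulin. Lum encodes lumican, which binds the same region of type I collagen as fibromodulin, and was at 13.3, 18.9, 10.9 and 17.9 in flox mice 1 to 4 and at 13.7, 17.6, 9.11 and 17.5 in MI4KO mice 1 to 4. The spread within each group was far wider than the difference between them (log2 fold change -0.08, SE 0.20, limma unadjusted p = 0.699). The ratio of Fmod to Lum, both in CPM, was 0.577 to 1.07 in flox mice, 0.333 and 0.283 in MI4KO mice 1 and 2, and 1.12 and 0.645 in MI4KO mice 3 and 4. MI4KO mice 1 and 2 therefore had low Fmod values without low Lum values.

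Prelp encodes prolargin, which links the matrix to basement membranes. It was at 21.8, 24.8, 20.8 and 27.8 in flox mice 1 to 4 and at 16.0, 23.8, 14.1 and 27.3 in MI4KO mice 1 to 4. MI4KO mice 1 and 3 lay below every flox mouse, and the other two lay within the flox range. The log2 fold change of Prelp was -0.26 (SE 0.18, limma unadjusted p = 0.171). Although Prelp is the neighbor of Fmod, MI4KO mouse 2 was near the flox mean for Prelp and at 4.98 for Fmod.

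Kera encodes keratocan, known from the cornea and from tendon, and was near the limit of detection. It had 6, 5, 1 and 0 reads in flox mice 1 to 4 and 1, 1, 5 and 5 reads in MI4KO mice 1 to 4, with values of at most 0.374. Only 4 of the 8 mice had at least 3 reads, and the 0 reads of flox mouse 4 allow a value of up to 0.219. Kera did not pass the filter on low values and was not tested, and a difference between the groups was not detectable at this depth.

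Ogn encodes osteoglycin, a small SLRP found in bone and muscle matrix. It was at 7.79, 11.7, 11.3 and 11.3 in flox mice 1 to 4 and at 8.99, 8.99, 9.11 and 9.31 in MI4KO mice 1 to 4. Every MI4KO mouse lay below flox mice 2 to 4 and above flox mouse 1. The means were 10.5 ± 1.81 and 9.10 ± 0.149 (SD, n = 4 each), and the log2 fold change was -0.17 (SE 0.12, limma unadjusted p = 0.179). The MI4KO values of Ogn were closer to each other than counting alone would give on average, with an SD 0.193 times the SD expected from their 124 to 154 reads.

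Podn encodes podocan, which binds collagen and is known from vascular smooth muscle. It was at 11.2, 9.57, 10.2 and 12.2 in flox mice 1 to 4 and at 7.18, 10.9, 6.58 and 11.2 in MI4KO mice 1 to 4. As for Prelp, MI4KO mice 1 and 3 were below all flox mice while MI4KO mice 2 and 4 were within the flox range. The log2 fold change was -0.27 (SE 0.16, limma unadjusted p = 0.111).

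Of the 9 members, 8 were in the fit, and 0.219% of all genes in it passed the limits of the study (0.16% lower and 0.059% higher in MI4KO mice). Fmod is among these, which its choice fixed, so that 1 gene is no result. None of the 7 other genes tested passed an unadjusted p of 0.05, which 3.36% of all genes did, and the adjusted p was 1.0 for each of them. At an adjusted p under 0.05, limma called 0 of the 11865 genes, while 399 had an unadjusted p under 0.05. On the recovered reads, edgeR also called 0 genes at an adjusted p under 0.05, and 65 genes (0.548%) passed the limits of the study.

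All 8 log2 fold changes were below 0, as were those of 56.2% of all genes tested, and the sign of Fmod was fixed by its choice. Aspn, at -0.01, had the higher mean in MI4KO mice (16.1 against 15.6 in flox mice). The log2 fold changes of Dcn and Aspn turned positive with median-of-ratios or library size scaling and with edgeR or DESeq2. The median over the 8 genes, in which Fmod is included, was -0.20, beside -0.01 over all genes. Groups without overlap were found for 0 of the 8, against 2.07% of all genes (1.7% with MI4KO lower). With 1 mouse left out, 4 of the 7 genes other than Fmod passed an unadjusted p of 0.05 by limma: Bgn without flox mouse 3 (-0.28) or MI4KO mouse 2 (-0.32), Ogn without flox mouse 1 (-0.30), Prelp without MI4KO mouse 4 (-0.41) and Podn without MI4KO mouse 2 (-0.37) or 4 (-0.38), each below the fold limit of 1.5. The log2 fold change of Fmod ran from -0.93 without flox mouse 1 to -0.50 without flox mouse 2.

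**Figure D2:**
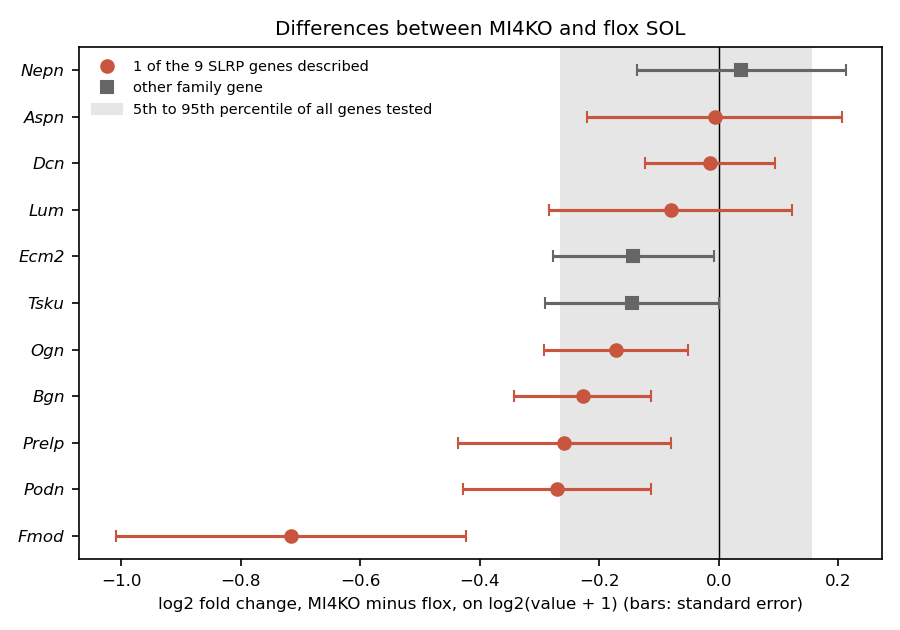
The horizontal axis gives the log2 fold change (MI4KO minus flox on log2(value + 1)) of the 8 members tested and of 3 other SLRP genes, each with its standard error, and the grey band spans the 5th to the 95th percentile of all 11865 genes tested. Fmod, at -0.72, lies far outside the band, Podn at -0.27 lies at its edge, and the other genes lie within it.

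The mice differed among themselves in SLRP levels as a set. MI4KO mouse 3 had the lowest value of all 8 mice for 5 of the 8 genes tested (Dcn, Lum, Prelp, Aspn and Podn), while 13.3% of all genes tested had their lowest value there. MI4KO mouse 1 was lowest for Fmod and Bgn, and flox mouse 1 for Ogn. The highest values were in flox mouse 2 for Fmod, Lum and Ogn, in flox mouse 4 for Bgn, Prelp and Podn, in MI4KO mouse 1 for Aspn and in MI4KO mouse 4 for Dcn. Without MI4KO mouse 3, the log2 fold changes of Dcn and Lum were 0.05 and 0.11, above 0.

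Fmod did not follow this order of the mice. In MI4KO mouse 3, Aspn was 0.75 below and Lum 0.61 below the mean of the 8 mice on the log2 scale, whereas Fmod was 0.09 above it. In MI4KO mouse 2, Fmod was 0.82 below the mean, whereas the other members except Ogn were 0.12 to 0.26 above it. The SD of Fmod within groups was 0.571 on the log2 scale, beside a median of 0.163 for 200 genes of like level, 99% of which had a smaller SD. Aspn (98.5%), Prelp (98%) and Lum (96%) also varied more between mice than most genes of their level, and Ogn (59%) did not stand apart.

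**Figure D3:**
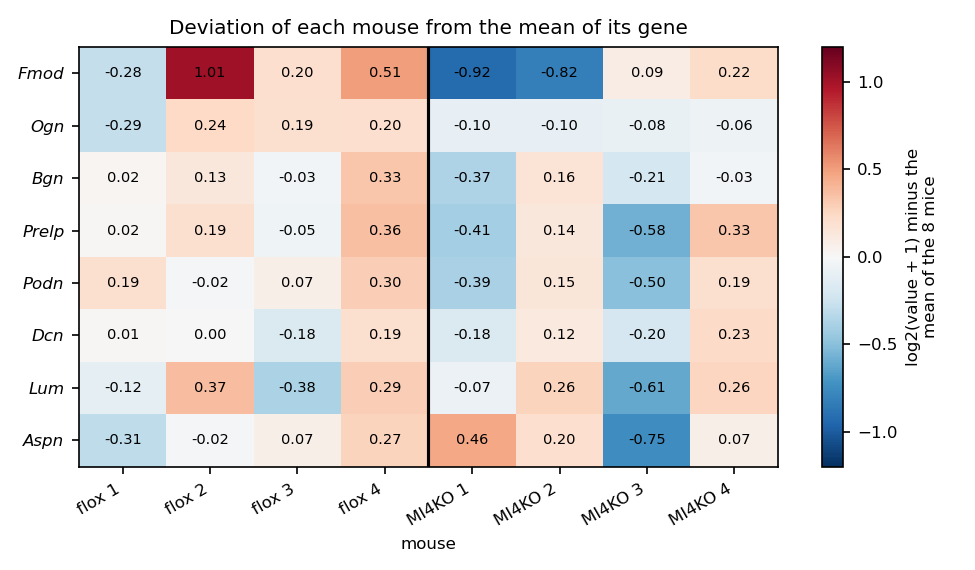
Each cell gives, for 1 gene and 1 mouse, the deviation of log2(value + 1) from the mean of the 8 mice, with blue below and red above that mean and a black line between flox and MI4KO mice. MI4KO mouse 3 is below the mean for every gene but Fmod (0.09), and Fmod is lowest in MI4KO mice 1 (-0.92) and 2 (-0.82).

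Dcn moved from mouse to mouse with several but not all members and with some fibroblast markers, as a description over the 8 mice of both groups. On log2(value + 1), Pearson's r with Dcn was 0.88 for Prelp (Spearman's rho 0.905), 0.81 for Lum (0.595), 0.80 for Podn (0.929) and 0.82 for Pdgfra (0.857), a receptor that marks fibro-adipogenic progenitors. It was 0.71 for Bgn (0.714), but only 0.31 for Aspn (0.214) and 0.04 for Ogn (0.095). The fibroblast markers Col3a1 and Col1a1 had r of 0.79 (0.833) and 0.66 (0.667). For the other fibroblast markers, r with Dcn is not given here, so these do not stand for the whole list. Ly6a, for example, was highest in MI4KO mouse 3 (69.4), where Dcn was lowest (129.6). It was at 41.6 in MI4KO mouse 4, where Dcn was highest (176). Of the tendon markers, Comp was at 0.66 (0.619), Thbs4 at 0.55 (0.429) and Scx at -0.67 (-0.690). The 5 genes tested with the highest r with Dcn were Plxdc2 (0.957, rho 0.905), Sod3 (0.947, rho 0.976), Glb1 (0.941, rho 0.976), Htra3 (0.940, rho 0.952) and Klhl42 (0.937, rho 0.929). Sod3 encodes the extracellular superoxide dismutase and Htra3 a secreted protease.

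The genes most like Fmod were others. Nedd4l, a ubiquitin ligase gene (r 0.96, rho 0.857), Klhl36 (0.95, rho 0.881), Rasa2 (0.95, rho 0.929), Cmtm6 (0.94, rho 0.905) and Invs (0.94, rho 0.881) had the highest r with Fmod. Col1a1, which encodes a chain of type I collagen, stood at place 174 with r = 0.798 (rho 0.881), and Ogn at place 404 with r = 0.72 (rho 0.881). Dcn (r 0.20, rho 0.357), Lum (r 0.20, rho 0.476) and Aspn (r -0.25, rho -0.238) were far down the list. The points of these correlations share their libraries and their scaling, and the highest r among the genes tested is high by selection. Group was not removed either, so the difference for which Fmod was chosen enters each r with Fmod. The log2 fold changes were -0.22 for Nedd4l, -0.36 for Klhl36, -0.27 for Rasa2, -0.10 for Cmtm6 and -0.32 for Invs.

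Levels of different SLRP genes can be compared only per length of transcript. Per kilobase of the longest annotated transcript, the mean over the 8 mice was 33.4 CPM for Bgn, 32.0 for Dcn, 6.81 for Aspn, 6.10 for Prelp, 6.07 for Lum, 3.82 for Ogn, 3.37 for Fmod, 2.72 for Podn and 0.0859 for Kera. Only Dcn over Aspn and Podn over Kera differed without overlap of the mice, and all other neighbors in this order overlapped. The longest transcript of Bgn has a single exon, so the longest protein-coding transcript was used as well, a choice made after the values were seen. With it, Dcn (85.4) stood above Bgn (36.8) without overlap, and Podn was at 3.12. This change came mostly from Dcn, whose longest transcript has 4692 bases and whose longest protein-coding one has 1758. For Bgn these lengths are 2666 and 2419 bases. With the median transcript length, Dcn (85.4) was again above Bgn (58.5), and Prelp (9.93) came next. Decorin and biglycan thus led the family under all 3 lengths, and the order of the middle genes was not settled by these data.

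**Figure D4:**
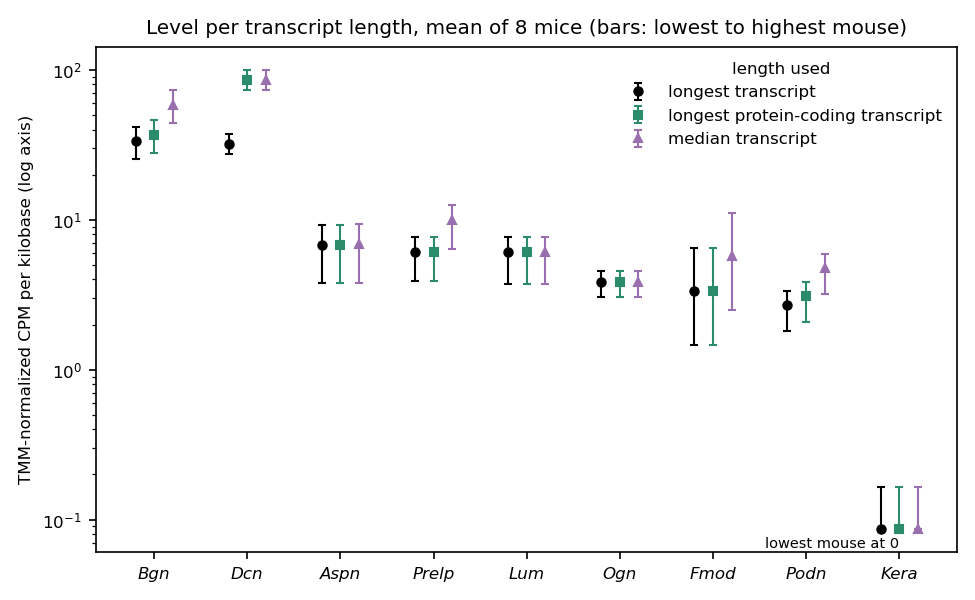
The vertical axis is logarithmic and gives TMM-normalized CPM per kilobase, as the mean of the 8 mice with bars from the lowest to the highest mouse, for 3 choices of transcript length. Bgn and Dcn lie between 32.0 and 85.4, Aspn, Prelp, Lum, Ogn, Fmod and Podn between 2.72 and 9.93, and Kera at 0.0859, where the lower bar is left out because 1 mouse is at 0.

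Of 9 other genes of the family, 3 were tested and none was called. Tsku (tsukushi) had a log2 fold change of -0.14 (SE 0.15), Ecm2 of -0.14 (SE 0.14) and Nepn (nephrocan) of 0.04 (SE 0.17). Chad, which encodes the cartilage protein chondroadherin, had 7, 33, 10 and 13 reads in flox mice 1 to 4 and 2, 6, 9 and 15 reads in MI4KO mice 1 to 4. Like Fmod, Chad was highest in flox mouse 2 (2.29) and lowest in MI4KO mouse 1 (0.145), and it did not pass the filter on low values. Omd, the osteomodulin gene between Aspn and Ogn, had 5, 5, 1 and 4 reads in flox mice and 10, 7, 8 and 8 reads in MI4KO mice. Omd was thus higher in every MI4KO mouse, at 0.453 to 0.725 against 0.0750 to 0.347, but these few reads also kept it out of the test. Epyc had 0 reads in every mouse, and Optc (4 reads in all), Nyx (1 to 4 reads in any mouse) and Podnl1 (2 reads, both in flox mouse 2) were at the limit of detection.

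Among 19 collagens and partner proteins that SLRPs bind, 17 were tested, 0 were called, and 16 log2 fold changes were below 0. Across all genes tested, 0.219% were called and 56.2% were below 0, shares that apply beside the counts of every list. At that share of calls, 0 calls in so short a list say little. The median of the collagens and partners was -0.22. That median was -0.089 without MI4KO mouse 1 and -0.34 without MI4KO mouse 4. Col1a1 had the lowest at -0.39 (SE 0.19, limma unadjusted p = 0.0672), with values of 44.0, 65.2, 52.9 and 69.7 in flox mice 1 to 4 and 28.8, 48.4, 41.5 and 60.4 in MI4KO mice 1 to 4. Col11a2, a minor fibrillar chain, had the highest at 0.05. MI4KO mouse 1 was lowest of all for both Col1a1 and Fmod, and flox mouse 4 was highest for Col1a1.

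Genes for collagen maturation and cross-linking had a median closer to that of all genes. Of 19 genes, 17 were tested, 0 were called and 16 were below 0, with a median of -0.09. They ran from Loxl2, a lysyl oxidase, at -0.33 to Plod2, a lysyl hydroxylase, at 0.12. Crtap, which takes part in prolyl hydroxylation of collagen, was the only gene of this list whose groups did not overlap, at 5.51 to 7.76 in MI4KO mice and 7.95 to 9.03 in flox mice (log2 fold change -0.31, SE 0.12, with a limma p of 0.0214 that became 1.0 on adjustment). Across all genes tested, 2.07% had groups without overlap (1.7% with MI4KO lower), so 1 such gene among 17 says little. Crtap was named after its values were seen, and its fold change was under the limit of 1.5.

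The enzymes that build the sugar chains of SLRPs were tested for 28 of 34 genes, with 0 called, 19 below 0 and a median of -0.07. Chst15, which adds a further sulfate to chondroitin sulfate, had the lowest log2 fold change at -0.49 (SE 0.20, with a limma p of 0.0271 that became 1.0 on adjustment), and B4galt1, a galactosyltransferase, the highest at 0.13. Chst15 was at 4.93, 6.10, 7.35 and 7.43 in flox mice 1 to 4 and at 3.70, 5.43, 2.66 and 5.92 in MI4KO mice 1 to 4. The groups overlapped, with MI4KO mice 1 and 3 below every flox mouse.

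Proteases that cut SLRPs, and their inhibitors, were tested for 10 of 17 genes, with 0 called, 9 below 0 and a median of -0.14. Adamts1 was lowest at -0.42 (SE 0.20) and Adamts9 highest at 0.12 (SE 0.35), and Mmp13, a collagenase that can cut fibromodulin, was at 0 in every mouse. SLRP ligands and receptors were tested for 19 of 20 genes, with 0 called, 12 below 0 and a median of -0.07. Tgfb2, which encodes a TGF-beta ligand, was lowest at -0.39 (SE 0.15, with a limma p of 0.0229 that became 1.0 on adjustment), and Met, a receptor to which decorin binds, was highest at 0.14. Genes that respond to TGF-beta were tested for 9 of 10, with 0 called, 6 below 0 and a median of -0.08, and Ltbp2, which encodes a latent TGF-beta binding protein, was highest at 0.19 (SE 0.16).

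**Figure D5:**
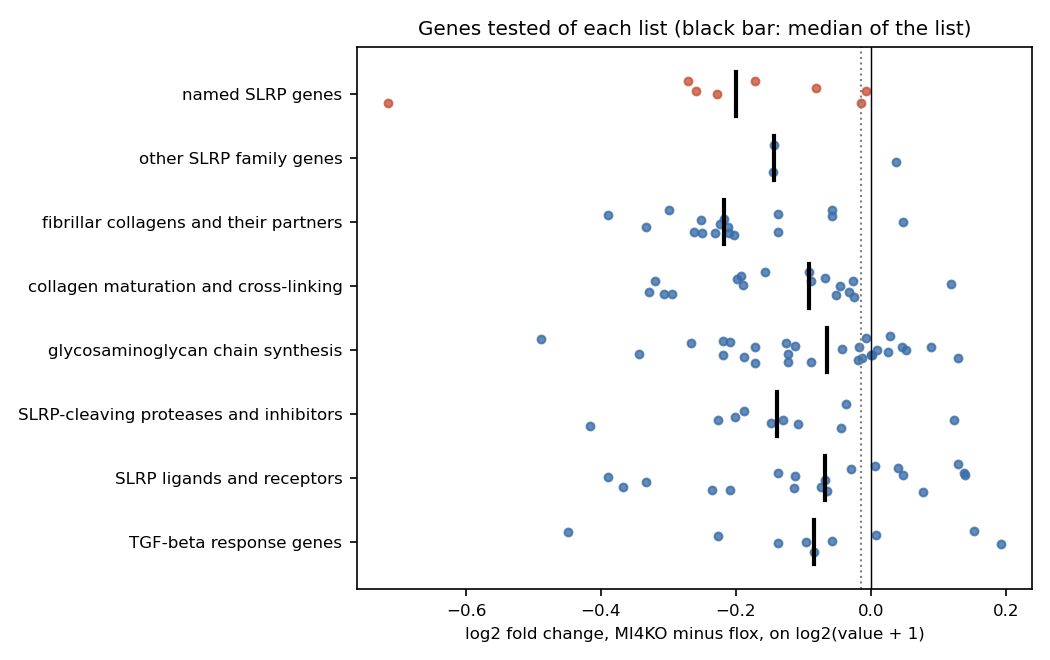
Each point is the log2 fold change (MI4KO minus flox on log2(value + 1)) of 1 gene tested, arranged by list with a random vertical offset, the black bars are list medians, and the dotted line is the median of all genes tested (-0.01). List medians run from -0.07 to -0.22, and Fmod at -0.72 is the lowest point of any list shown.

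Markers of the cells that make SLRPs were examined beside these values. The summed level of 15 fibroblast and fibro-adipogenic progenitor genes was 819.4 to 1049.8 in flox mice and 676.8 to 995.6 in MI4KO mice (exact two-sided permutation p = 0.457, adjusted p = 0.651 over 12 lists). Of the 15 log2 fold changes, 13 were below 0, beside 56.2% of all genes tested. Pdgfra was at -0.03 (SE 0.13), Clec3b at -0.33 (SE 0.17) and Gsn, the most abundant, at -0.09 (SE 0.12). The lowest sum was in MI4KO mouse 1, the mouse with the lowest Fmod and Bgn values, and the second lowest in MI4KO mouse 3, at 802. The part of fibroblast content in the SLRP values was not tested.

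Tendon markers, which matter because Fmod is abundant in tendon, overlapped between the groups. Their 9 genes summed to 78.3 to 90.4 in flox mice and 72.4 to 98.1 in MI4KO mice (exact two-sided permutation p = 0.714, adjusted p = 0.779), with 3 of 6 genes tested below 0. Thbs4, the most abundant, was at 28.4 to 38.7 in flox mice and 33.4 to 39.8 in MI4KO mice, Scx, the transcription factor of tendon cells, was at 6.92 to 9.54 and 6.53 to 11.8, and Cilp was at 28.1 to 32.2 and 19.9 to 45.6. These 3 genes had the higher mean in MI4KO mice, and the other 6 the lower one. Comp had a log2 fold change of -0.24 (SE 0.23), Tnc of -0.23 (SE 0.23) and Chodl of -0.19 (SE 0.16), none of which passed the test. The other 3 were too low to be tested, with means of 1.088 in flox and 0.678 in MI4KO mice for Tnmd, 0.880 and 0.503 for Cilp2 and 0.411 and 0.335 for Mkx. Tnmd, which encodes the tendon protein tenomodulin, was at 0.748, 1.25, 0.750 and 1.60 in flox mice 1 to 4 and at 0.508, 0.453, 0.665 and 1.088 in MI4KO mice 1 to 4. MI4KO mice 1 and 2, the lowest for Fmod, were also the lowest for Tnmd, while their tendon sums, carried by Thbs4 and Cilp, were 84.0 and 95.2. The part of attached tendon in the Fmod values was not tested. Cartilage and bone markers consisted almost wholly of Sox9, with Bglap and 3110079O15Rik (Snorc) at 0, and summed to 10.7 to 17.6 in flox mice and 10.5 to 16.1 in MI4KO mice (exact two-sided permutation p = 1.0).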

How the data were processed

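SOL RNA of 4 flox and 4 MI4KO mice was sequenced as single reads of 50 bases. The submitters' processing notes name bcl2fastq 2.17, Bowtie2 2.1.0, RSEM 1.2.15 and the mm10 build. The deposited table gives, per gene and mouse, a signal in TMM-normalized CPM. The fold changes, p-values and FDR that the authors added from their own comparison were not used. Divided by the step of their mouse, 100% of the values above 0 gave whole reads (tolerance 0.01), which were recovered in this way.

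Genes that reached a value of 1 in 4 or more of the 8 mice were tested with limma 3.58.1 (R 4.3.3) with a trend on log2(value + 1), and p-values were adjusted after Benjamini-Hochberg over all genes tested. edgeR 4.0.16 (quasi-likelihood, 65 genes past the study's limits) and DESeq2 1.42.0 served as alternatives on recovered reads. Marker sums were compared by exact two-sided permutation (scipy 1.17.1), whose smallest p for 4 against 4 mice is 0.0286. The fits were tested on simulated data.

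The members, the gene lists and the tests were chosen with earlier results of these data known. Genes named are the SLRP genes, Irf4, tendon and fibroblast markers, the called genes and both extremes of each list, and the 5 genes most like Fmod and Dcn. Adgre1 and Snorc were matched through RefSeq synonyms, and Ly6g had no row. Depth limits precision as counting error only. The values of 1 listed gene are not reported here. Muscles other than SOL were not analysed here.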

Additional observations from a re-analysis of the deposited data

Results flagged for a closer look

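The values of 4 groups stood apart from the other 3 mice of their group by the ratio of the gap to the range, where 62 groups were examined, the limit was Dixon's 95% critical value for 4 samples, and chance alone passes it in about 1 of 20 groups. Ogn was lowest in flox mouse 1 (ratio 0.912), at 7.79 against 11.3 to 11.7 in the other flox mice. Podnl1 was highest in flox mouse 2 (ratio 1.0), which rests on 2 reads. The sum of the 4 myotendinous junction markers was highest in flox mouse 3 (ratio 0.865), at 201.7 against 179.1 to 182.0 in the other flox mice. The sum of the 12 liver markers was highest in flox mouse 1 (ratio 0.879), at 179.9 against 12.2 to 16.9 in the other flox mice.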

How the results depend on the processing

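Fmod had a log2 fold change below 0 in all 18 alternatives (-0.93 to -0.48), which reuse the mice on whose values Fmod was chosen. That sign is therefore no support for a difference. The number of members past the study's limits was 1, which the choice of Fmod fixed. It went to 0 without the filter, with robust estimation, with the mouse number range as a covariate and with DESeq2. It also went to 0 without flox mouse 2, flox mouse 4, MI4KO mouse 1 or MI4KO mouse 2 (0 to 1 over the mice left out). The number of genes past the study's limits, 26, was 41 with a pseudocount of 0.5, 71 with 0.1, 13 with robust estimation, 65 with edgeR and 51 with DESeq2, and 19 to 58 with 1 mouse left out (58 without MI4KO mouse 4). The number at an adjusted p under 0.05, 0, was 0 to 1 with 1 mouse left out (1 without MI4KO mouse 2). Dcn and Aspn turned to 0.0062 and 0.013 with median-of-ratios scaling, 0.030 and 0.037 with library size scaling, 0.012 and 0.072 with edgeR and 0.014 and 0.076 with DESeq2. With 1 mouse left out, Dcn ran from -0.094 to 0.051, Aspn from -0.16 to 0.24, Lum from -0.22 to 0.11, and the sums of tendon from -0.024 to 0.12, cartilage and bone from -0.11 to 0.13 and mural markers from -0.27 to 0.0085 (log2). By the mean of log2(value + 1), tendon was -0.13, cartilage and bone -0.026 and muscle fiber markers 0.022. Myotendinous junction markers, -0.19 by their sum, were -0.34 by that mean, with an exact permutation p of 0.0571 where 4 against 4 mice can reach 0.0286. With 1 mouse left out, their sum ran from -0.22 to -0.15. There 0.0571 is the smallest p that 3 against 4 mice can give, so a p under 0.05 was out of reach. Bgn, Ogn, Prelp and Podn stayed below 0 in all 18 alternatives, and none of them passed the limits of the study or an adjusted p of 0.05 there, while each passed an unadjusted p of 0.05 with at least 1 choice of mouse left out. The median of the TGF-beta response genes reached 0.012 with 1 mouse left out. The cause of these changes was not tested. No paired analysis was possible because the labels give every mouse its own number and the groups share none. With 4 mice per group, 0 genes passed an adjusted p of 0.05, and counts of a few reads limit Kera, Omd and Irf4.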

Other observations

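Among the other cell types whose markers were summed, the myotendinous junction list was the only 1 of 12 whose groups did not overlap, at 179.1 to 201.7 in flox mice and 156.1 to 174.7 in MI4KO mice (exact two-sided permutation p = 0.0286, the smallest the design allows, and adjusted p = 0.343). All 4 of its genes were below 0. Itga7, with means of 133.9 in flox and 123.3 in MI4KO mice, made up most of the sum. Tigd4 had a log2 fold change of -0.49 (SE 0.13) and was not called. Ankrd1 was at 3.79 in MI4KO mouse 3 and at 16.2 to 21.3 in the other mice. Endothelial markers summed to 281.4 to 351.6 in flox mice and 219.7 to 318.7 in MI4KO mice, with 5 of 5 genes below 0 (exact permutation p = 0.171). Mural cell markers also had 5 of 5 below 0 (exact permutation p = 0.543). Of all genes tested, 56.2% were below 0. Adipocyte markers had 5 of 6 tested genes below 0 (exact permutation p = 0.229), and Cfd, the adipsin gene, passed the limits of the study with a log2 fold change of -0.65 (SE 0.28, with a limma p of 0.0394 that became 1.0 on adjustment). Macrophage markers had 0 of 4 tested genes below 0 (exact permutation p = 0.2). The muscle fiber (exact permutation p = 0.514), Schwann cell (0.286), neutrophil (0.2) and liver (0.343) sums overlapped between the groups, and the highest neutrophil sum, 4.25, was in MI4KO mouse 3. Cyp2e1, on the liver list, passed the limits at -0.96 (SE 0.37, with a limma p of 0.0223 that became 1.0 on adjustment), with 11.5 in flox mouse 1 against 1.80 to 2.43 in the other flox mice and 1.06 to 1.51 in MI4KO mice. Cfd, Cyp2e1, Itga7, Tigd4 and Ankrd1 were named after their values were seen.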
